A study of Mus musculus with 31 samples.

Results

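The probes for oxidative phosphorylation were followed across 31 microarrays of mouse retina. Members were all probes whose annotated gene symbol began with Nduf, with Sdh followed by a, b, c or d, with Uqcr, with Cox4 to Cox8, or with Atp5. On an array of 25697 probes, 107 probes met this rule, and 101 of them, for 81 of the 11172 genes with a usable probe, were kept because at least 6 arrays detected them (detection p-value below 0.05). Of the 101 kept probes, 97 were detected on all 31 arrays. Complex I had 50 probes for 39 genes, complex II 6 probes for 3 genes, complex III 9 probes for 8 genes, complex IV 18 probes for 15 genes and complex V 18 probes for 16 genes. The symbols also took in 5 assembly factors of complex I (6 probes), the pseudogene Ndufs5-ps and the supercomplex factor Cox7a2l, which are no subunits in the strict sense and were counted apart where named. The 6 probes below the filter belonged to Cox6a2, Cox7b2, Cox8c, Ndufs1 and Ndufaf7 (2 probes), of which Ndufaf7 was also measured by a kept probe. Just inside the filter was a probe of Cox6b2, detected on 19 arrays, and just outside it the probe of Cox6a2, detected on 2, while the other 5 were detected on 0.

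Oxidative phosphorylation is the last stage of respiration. Complex I oxidises NADH and complex II oxidises succinate. Complex III passes their electrons to cytochrome c, and complex IV passes them on to oxygen. Complex V is the ATP synthase, a rotary enzyme driven by the proton gradient that complexes I, III and IV build up. Most subunits are encoded in the nucleus and imported into the mitochondrion, and all genes described here are of that kind. Photoreceptors are packed with mitochondria in their inner segments, and the retina is known for its high use of oxygen.

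Whole retinas of C57BL/6J mice came from 4 groups. The Ins2Akita group (9 arrays) had the genotype Ins2Akita/Ins2, a dominant mutation of an insulin gene that leads to loss of pancreatic beta cells. The STZ group (6 arrays) had been given streptozotocin, a toxin of beta cells. The Control group (8 arrays) was not treated, and the WT group (8 arrays) had the genotype Ins2/Ins2. Retinas were collected after 3 months of hyperglycaemia in the diabetic models. The sources used here give no age, sex or dose of streptozotocin. They do not state that each array of a group is a different animal, and the p-values therefore cover the spread among arrays, part of which may be technical. The 4 groups were hybridised to 4 BeadChips, 1 per group, apart from replicate 9 of Ins2Akita, which was on the BeadChip of the STZ arrays. BeadChip and group therefore cannot be told apart in any comparison. Detected probes per array ranged from 14581 to 16460, with the fewest on WT replicate 6. Of the listed markers, 8 of 10 rod genes (10 probes) and 7 of 7 cone genes (9 probes) had a kept probe. All of these probes, already selected by the detection filter, were detected on every array. Markers of lens, of pigment epithelium and melanocytes, and of muscle varied widely between arrays of the same group.

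Promoter sequence of RefSeq (GRCm38.p6) was at hand for 69 of the 81 genes, as 74 windows from 250 bases before to 50 bases after a start site. The windows of 4 genes are shown, of 3 genes that fell in Ins2Akita retinas and 1 that rose, because motifs of known regulators of respiratory genes lie in them. Capitals mark the motif letters found on either strand.
Ndufaf1 (chr2:119662785-119663084, minus strand), an assembly factor of complex I, with the ETS motif CCGGAAG: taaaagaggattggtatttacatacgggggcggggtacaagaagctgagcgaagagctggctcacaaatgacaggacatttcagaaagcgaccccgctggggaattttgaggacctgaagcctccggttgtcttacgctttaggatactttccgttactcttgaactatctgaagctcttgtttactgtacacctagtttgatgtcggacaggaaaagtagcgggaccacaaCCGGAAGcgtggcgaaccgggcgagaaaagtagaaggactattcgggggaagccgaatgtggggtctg
Ndufb5 (chr3:32736813-32737112, plus strand), an accessory subunit of complex I, with the YY1 motif AANATGGC in 2 places: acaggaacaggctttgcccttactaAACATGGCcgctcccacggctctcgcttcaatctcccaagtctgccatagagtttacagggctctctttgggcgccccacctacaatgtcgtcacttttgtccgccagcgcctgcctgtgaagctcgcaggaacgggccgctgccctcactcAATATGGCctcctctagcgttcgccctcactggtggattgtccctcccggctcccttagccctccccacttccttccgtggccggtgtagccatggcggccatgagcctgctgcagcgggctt
Ndufa6 (chr15:82354242-82354541, minus strand), an accessory subunit of complex I, with the NRF1 motif GCGCANGCGC on the other strand: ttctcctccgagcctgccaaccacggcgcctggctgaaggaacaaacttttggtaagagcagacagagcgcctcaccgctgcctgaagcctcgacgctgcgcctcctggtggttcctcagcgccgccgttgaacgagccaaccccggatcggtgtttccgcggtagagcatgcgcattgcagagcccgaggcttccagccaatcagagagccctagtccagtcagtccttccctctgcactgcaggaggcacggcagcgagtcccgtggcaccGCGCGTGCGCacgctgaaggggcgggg
Atp5g3 (chr2:73911277-73911576, minus strand), a subunit of the rotor ring of ATP synthase, with the ERR motif AAGGTCA and the NRF1 motif, both on the other strand: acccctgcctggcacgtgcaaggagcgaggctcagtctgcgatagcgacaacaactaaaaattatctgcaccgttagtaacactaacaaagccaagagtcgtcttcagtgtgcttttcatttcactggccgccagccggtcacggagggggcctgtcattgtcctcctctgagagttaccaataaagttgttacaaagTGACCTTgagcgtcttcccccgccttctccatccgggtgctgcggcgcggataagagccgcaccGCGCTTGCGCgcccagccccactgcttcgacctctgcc

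These 4 motifs were searched in all 74 windows on both strands, and no motif contains another. The NRF1 motif was present in 17 of 74 member windows (23.0%), against 8.98% of 11674 windows of genes with a kept probe and 4.6% of all 32851 windows of the table. The ETS motif, the letters bound by GABPA, was present in 17 member windows (23.0%), against 15.2% and 8.86%. The YY1 motif was present in 18 member windows (24.3%), against 7.6% and 6.05%. The ERR motif was present in 7 member windows (9.46%), against 3.46% and 4.72%. At least 1 of the 4 motifs was present in 46 of the 74 member windows. Among the 10 windows of members lower in Ins2Akita than in WT retinas, 2 held the NRF1 motif, 2 the ETS motif, 4 the YY1 motif and 1 the ERR motif. Such a match describes letters and does not show binding.

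Members were bright as a class. Their mean log2 level had a median of 10.91 over the 101 probes, against 7.25 over the 16743 probes kept, and ranged up to 13.83 for Atp5b, the catalytic beta subunit of ATP synthase. Levels of different probes are not comparable with each other as amounts of RNA, so only differences between groups are read below. The shares of all probes set beside the members below come from probes that were mostly dimmer, and were not matched for level. All levels and changes are on the log2 scale after background correction and quantile normalization, and a change counts as passing the test where the limma p, adjusted over all 16743 probes, was under 0.05. A lower level in a whole retina cannot tell fewer cells of a type from less RNA per cell.

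In Ins2Akita against WT retinas, 11 members fell and 2 rose, together 12.9% of the 101 probes, against 4.16% of all probes (2.4% lower and 1.76% higher). The members that fell were 3 assembly factors of complex I (Ndufaf1, Ndufaf3, Ndufaf5), 4 of its accessory subunits (Ndufa6, Ndufb3, Ndufb5, Ndufc1), 2 subunits of complex IV (Cox4i1, Cox7c) and 2 of complex V (Atp5e, Atp5pb). The members that rose were Atp5g3 and Ndufc2, the second of which lay outside the rule for named genes and was chosen after its values were seen. Changes were small. They ran from a fall by 0.43 in Ndufb5 to a rise of 0.23 among those that passed. The median change over all members was -0.072, against -0.001 over all probes. With the authors' series matrix values, which are not background-subtracted, it was -0.077, against -0.086 over all probes. With those values the median of the members was therefore not below that of all probes. With the BeadChip as a random block, 8 members passed, 7 lower and 1 higher, and the calls on Ndufc1, Ndufc2, Cox4i1, Atp5e and Atp5pb were lost (limma adjusted p of 0.0505 to 0.122). Only Ins2Akita replicate 9 lay off the BeadChip of its group, so this block cannot correct for differences between BeadChips. With the scores of lens, pigment epithelium and muscle markers as covariates, 9 passed, without Ndufc1, Ndufc2, Cox4i1 and Atp5e (0.0543 to 0.102). With only the Ins2Akita and WT arrays in the fit, 9 passed, without Ndufaf5, Ndufc2, Cox4i1 and Atp5e (0.0563 to 0.0818). Median scaling in place of quantile normalization left 10, all of them lower, without Ndufc2, Cox4i1 and Atp5g3 (0.0705 to 0.13). Without adjustment, 31 members had a p under 0.05, against 19.2% of all probes.

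**Figure D1:**
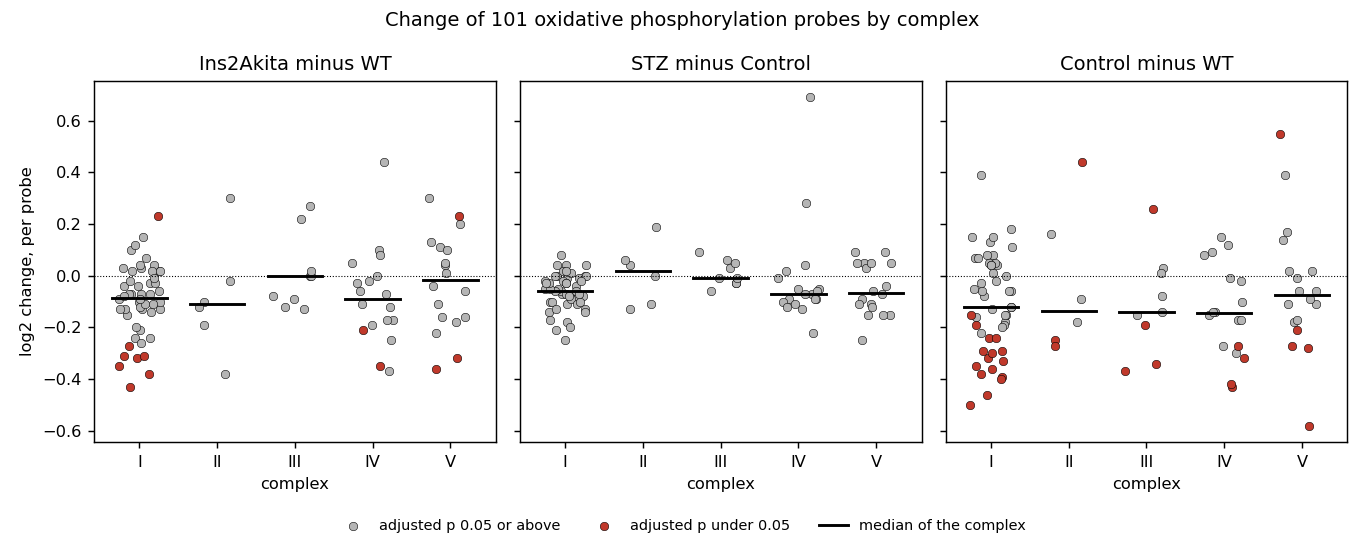
Log2 change of each of the 101 kept probes (points) by complex, for Ins2Akita minus WT, STZ minus Control and Control minus WT; red points had an adjusted p under 0.05 (13, 0 and 32 probes) and bars are medians of a complex. In complex I the red points of the first panel lie below 0 except Ndufc2, and the middle panel has no red point.

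The assembly factors of complex I, which help to build the enzyme and then leave it, gave the smallest adjusted p of all members. Ndufaf1 had log2 levels of 9.06, 9.19 and 9.36 (lowest, median and highest of 9) in Ins2Akita retinas, against 9.39, 9.52 and 9.62 in WT retinas (8 arrays). Every Ins2Akita array lay below every WT array. The change was -0.32 (SE 0.0516, limma adjusted p = 0.000924). STZ retinas had a median of 9.27 and Control retinas also one of 9.27, so that both medians lay between those of Ins2Akita and WT. Ndufaf3 had log2 levels of 7.5, 7.6 and 7.8 in Ins2Akita retinas, against 7.76, 7.91 and 8.13 in WT retinas, a change of -0.31 (SE 0.0689, limma adjusted p = 0.00926). The groups overlapped slightly. Of the probes for Ndufaf5, one fell by 0.27 (limma adjusted p = 0.0139) and the other changed by -0.15 (adjusted p = 0.305). In all, 3 of the 6 assembly factor probes fell, and the median change of the 6 was -0.21. Tmem70, which acts in the assembly of ATP synthase, was 1 lower call among 46 probes of 31 other assembly genes of complexes I to V (change -0.29, limma adjusted p = 0.0148). That is 2.17% of these probes, near the 2.4% of all probes that were lower.

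The accessory subunits of complex I surround its catalytic core and support its stability and assembly. Ndufb5, in the membrane arm, had log2 levels of 10.27, 10.52 and 10.81 in Ins2Akita retinas, against 10.67, 10.93 and 11.33 in WT retinas, and changed by -0.43 (SE 0.085, limma adjusted p = 0.00447). Ndufa6, in the matrix arm, had 11.23, 11.38 and 11.58 in Ins2Akita retinas, against 11.45, 11.76 and 12.12 in WT retinas, and changed by -0.35 (SE 0.0737, adjusted p = 0.00652). In both genes the ranges overlapped at the edge, with the highest Ins2Akita arrays above the lowest WT arrays. Ndufb3, also of the membrane arm, had 10.2, 10.46 and 10.66 in Ins2Akita retinas, against 10.49, 10.76 and 11.15 in WT retinas, and changed by -0.38 (SE 0.0892, adjusted p = 0.0135). One of the 2 probes of Ndufc1 fell by 0.31 (adjusted p = 0.0154), and the other changed by -0.14 (adjusted p = 0.374). Ndufc2, which sits beside Ndufc1 in the membrane arm, went the other way, with 11.46, 11.81 and 11.95 in Ins2Akita retinas, against 11.44, 11.51 and 11.61 in WT retinas, a change of 0.23 (SE 0.0675, adjusted p = 0.0444). That call was lost in 15 of 31 fits with 1 array left out, when its adjusted p reached 0.0883. The other 32 of the 38 accessory probes, and that second probe of Ndufc1, did not pass the test. They include the brightest and the dimmest probe of complex I. Ndufa4, counted here by its symbol although the protein is now placed in complex IV, changed by 0.04 (SE 0.067, adjusted p = 0.782), and Ndufab1, the mitochondrial acyl carrier protein, changed by 0.1 (SE 0.0861, adjusted p = 0.561).

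The core subunits of complex I form the part that hands electrons from NADH towards ubiquinone. None of the 5 with a kept probe passed the test in Ins2Akita retinas, where 4.16% of all probes passed. With 5 probes, the absence of a call is near that share. The changes of the 5 lay between -0.09 and 0.04. Ndufv1, the NADH-binding subunit, had log2 levels of 11.73, 11.92 and 11.93 in Ins2Akita retinas, against 11.85, 11.98 and 12.08 in WT retinas (change -0.09, SE 0.0609, limma adjusted p = 0.436). Ndufv2 differed by 0.04 (SE 0.0531, adjusted p = 0.729), Ndufs3 by -0.09 (SE 0.0539, adjusted p = 0.389), Ndufs7 by -0.07 (SE 0.0675, adjusted p = 0.626) and Ndufs8 by -0.01 (SE 0.06, adjusted p = 0.935). With standard errors of this size a change as large as that of Ndufb5 would have stood well outside the error of each. The difference between core and accessory subunits was not tested.

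No probe of complex II (6 probes) or III (9 probes) passed the test in Ins2Akita retinas, where 4.16% of all probes passed. With so few probes, the absence of a call is near that share. Sdhb, the iron-sulphur subunit of succinate dehydrogenase, was measured by 3 probes, with changes from -0.38 on the dimmest (adjusted p = 0.132) to -0.02. The probes of the membrane anchors Sdhc and Sdhd changed by -0.19 to 0.3. In complex III the core proteins Uqcrc1 and Uqcrc2 changed by -0.12 and -0.08. The Rieske iron-sulphur protein Uqcrfs1 changed by 0.22 (adjusted p = 0.179) on a dim probe, and Uqcrq, the dimmest of the complex, changed by 0.27 (adjusted p = 0.108). Median changes were -0.108 over the 6 probes of complex II and 0.001 over the 9 of complex III.

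Complex IV, cytochrome c oxidase, had 2 members that fell in Ins2Akita retinas. Cox7c, a small subunit of its membrane part, had log2 levels of 11.77, 12.01 and 12.22 in Ins2Akita retinas, against 12.08, 12.31 and 12.62 in WT retinas, and changed by -0.35 (SE 0.0724, limma adjusted p = 0.00612). Cox4i1, the common isoform of the largest nuclear-encoded subunit, had 12.34, 12.53 and 12.66 in Ins2Akita retinas, against 12.52, 12.72 and 12.92 in WT retinas, and changed by -0.21 (SE 0.0575, adjusted p = 0.0347). The call on Cox4i1 did not hold when any of 6 arrays was left out (WT replicates 5, 6 and 7, Ins2Akita replicates 1, 6 and 7), and the highest adjusted p was then 0.0845. Besides Cox4i1 and Ndufc2, no call in this comparison was lost to leaving out 1 array. Cox4i2, the isoform of lung and pericytes, changed by -0.06 (SE 0.147, adjusted p = 0.875). Cox7a2, the ubiquitous counterpart of the muscle isoform Cox7a1, changed by -0.25 (SE 0.0821, adjusted p = 0.0756), and Cox8a by -0.11 (SE 0.0935, adjusted p = 0.533).

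ATP synthase had the one member whose arrays lay wholly above WT. Atp5g3, which encodes the c subunit of the rotor ring, had log2 levels of 13.66, 13.77 and 13.82 in Ins2Akita retinas, against 13.43, 13.53 and 13.62 in WT retinas. Its change was 0.23 (SE 0.0472, limma adjusted p = 0.0053), and with median scaling it was 0.22 and no longer passed. The other genes of the same c subunit, which differ in their import signals, did not pass: Atp5g1 changed by 0.04 (SE 0.101, adjusted p = 0.864) and Atp5g2 by -0.16 (SE 0.0819, adjusted p = 0.29). Atp5e, the small epsilon subunit of the central stalk, had 8.68, 8.81 and 8.98 in Ins2Akita retinas, against 8.8, 9.1 and 9.62 in WT retinas, a change of -0.36 (SE 0.089, adjusted p = 0.0185). Atp5pb, subunit b of the peripheral stalk, had 10.38, 10.51 and 10.76 in Ins2Akita retinas, against 10.7, 10.87 and 11.07 in WT retinas, a change of -0.32 (SE 0.0771, adjusted p = 0.0153). Of the 5 F1 subunits with a kept probe, Atp5e alone passed. Among the others, Atp5a1, Atp5b and Atp5c1 changed by -0.11, -0.06 and 0.13. Of the 101 members, Ndufaf1 and Atp5g3 were the 2 whose Ins2Akita and WT arrays did not overlap, against 0.46% of all probes.

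**Figure D2:**
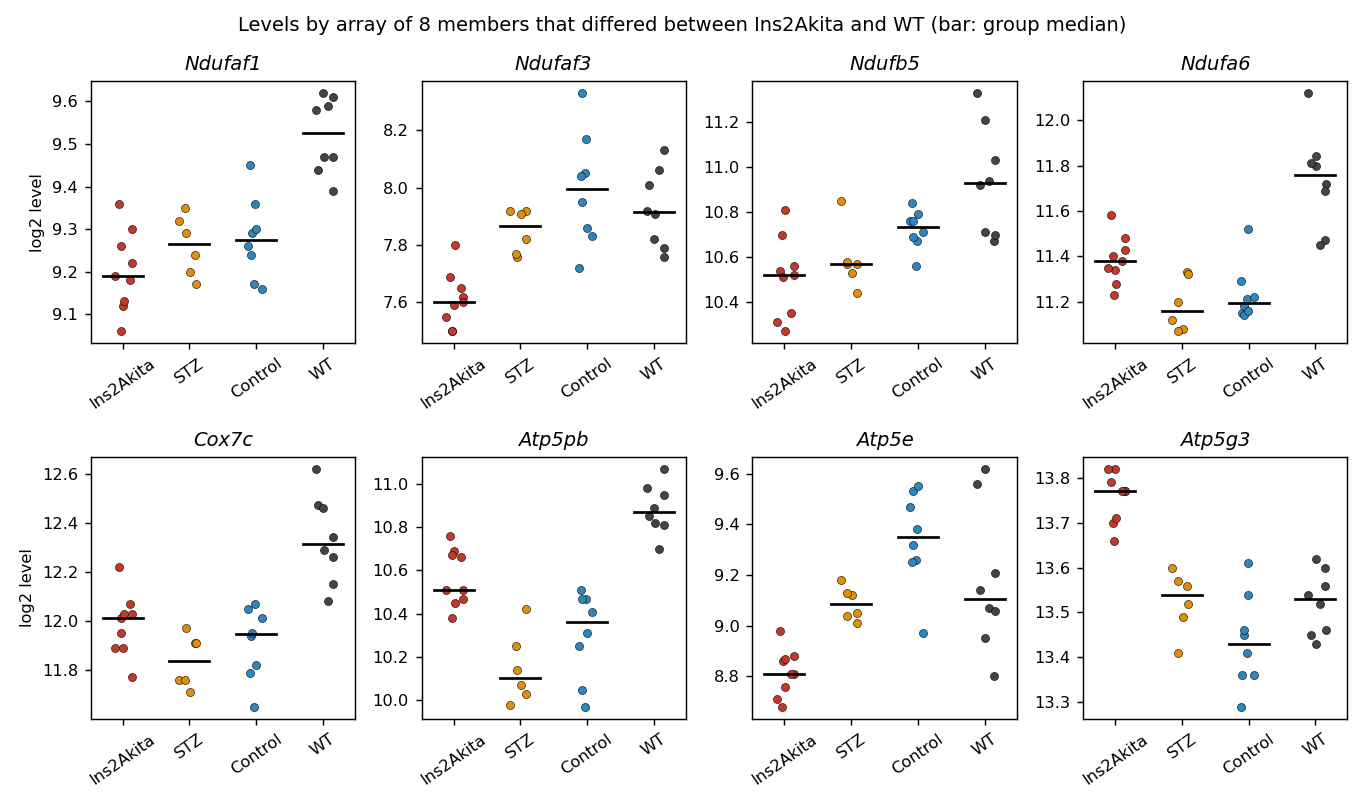
Log2 level on each array (points) in Ins2Akita, STZ, Control and WT retinas for 8 of the 13 members that passed the test between Ins2Akita and WT; bars are group medians and each panel has its own axis. Ndufaf1 and Atp5g3 do not overlap between Ins2Akita and WT. The highest median lies in WT for Ndufaf1, Ndufb5, Ndufa6, Cox7c and Atp5pb.

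In STZ against Control retinas, no member passed the test. Of all 16743 probes, 6 passed (0.0358%), and 4 members had an unadjusted p under 0.05, against 8.55% of all probes, all 4 of them lower. They included the supercomplex factor Cox7a2l (-0.22, SE 0.0821, limma adjusted p = 0.389) and Atp5e (-0.25, SE 0.0989, adjusted p = 0.43). The others were 1 probe of Ndufc1 (-0.2, SE 0.082, adjusted p = 0.455) and 1 probe of Ndufb11 (-0.25, SE 0.122, adjusted p = 0.576). Ndufb11 lay outside the rule for named genes and was named after its values were seen. Changes of 73 members were below 0, with a median of -0.054, against -0.013 over all probes. That median was -0.016 without Control replicate 1. The median standard error was 0.0876, against 0.0789 between Ins2Akita and WT, where there were more arrays.

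The members that differed in Ins2Akita retinas had these values in STZ retinas. Ndufaf1 had log2 levels of 9.17, 9.27 and 9.35 in STZ retinas, against 9.16, 9.27 and 9.45 in Control retinas (change -0.02, SE 0.0573, limma adjusted p = 0.964). Ndufa6 changed by -0.05 (SE 0.0819, adjusted p = 0.932), Ndufb5 by -0.13 (SE 0.0945, adjusted p = 0.765) and Cox7c by -0.07 (SE 0.0805, adjusted p = 0.874). Atp5g3 had 13.41, 13.54 and 13.6 in STZ retinas, against 13.29, 13.43 and 13.61 in Control retinas (change 0.09, SE 0.0524, adjusted p = 0.678). The changes in the 2 models were also compared directly. No member passed that test, against 0.0179% of all probes, and 10 members had an unadjusted p under 0.05, against 8.65% of all probes. The smallest adjusted p was that of Ndufaf1 (difference -0.3, SE 0.0771, limma adjusted p = 0.166), followed by Ndufc2 (0.31, SE 0.101, adjusted p = 0.322).

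Among the 3 comparisons of the design, most differences lay between the groups without diabetes. In Control against WT retinas, 29 members were lower and 3 higher, 31.7% of the 101, against 22.2% of all probes. For lower levels alone this was set against 10.9% of all probes, and for higher levels against 11.4%. The median change of the members was -0.118, against 0.002 over all probes, and with median scaling it was -0.207, against -0.048. All 5 complexes had lower members: 16 of 50 probes in complex I, 2 of 6 in complex II, 3 of 9 in complex III, 4 of 18 in complex IV and 4 of 18 in complex V. Without WT replicate 6, the array with the fewest detected probes, 22 members passed. With the BeadChip as a random block, 24 members passed, and the calls on Ndufs3, Ndufa3, Ndufa12, Ndufaf7, Sdhc (its bright probe), Uqcrb, Uqcrfs1 and Atp5mpl were lost (limma adjusted p of 0.0584 to 0.0996). Control and WT were on separate BeadChips, so this block cannot correct for differences between BeadChips here either. With only the Control and WT arrays in the fit, 24 passed as well. Without adjustment, 42 members had a p under 0.05, against 34.4% of all probes.

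Markers of retinal cell types had the following levels on the same arrays. Cone markers (7 of 7 genes, 9 probes) had summed deposited intensities of 17650 to 20285 in Control retinas, against 18411 to 24015 in WT retinas, and median scores of -0.03 in Control and 0.17 in WT. Bipolar markers (5 of 5 genes, 6 probes) ran the other way, with sums of 10217 to 11896 in Control retinas, against 7963 to 10225 in WT retinas, and median scores of 0.14 in Control and -0.05 in WT. Rod markers (8 of 10 genes, 10 probes) had median scores of 0.07 in Control and -0.05 in WT. Amacrine markers (5 of 6 genes, 11 probes) had 0.01 and -0.09. Ganglion cell markers (4 of 6 genes, 7 probes) had 0.02 and 0.0, and Muller glia markers (5 of 5 genes, 5 probes) had -0.03 and -0.0. In Ins2Akita retinas the cone sums were 17611 to 22823, with a median score of -0.03, and in STZ retinas 15678 to 20692, with a median score of -0.13. Median scores in Ins2Akita and STZ retinas were -0.03 and 0.01 for rod markers and -0.07 and 0.06 for bipolar markers. They were 0.07 and 0.0 for amacrine, 0.06 and -0.1 for ganglion cell, and -0.01 and 0.06 for Muller glia markers. The ranges of Control and WT overlapped in all of these lists, and the part of these cell types in the changes of the members was not tested.

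Atp5pb showed the smallest p. Its log2 levels were 9.97, 10.36 and 10.51 in Control retinas, against 10.7, 10.87 and 11.07 in WT retinas, without overlap, and the change was -0.58 (SE 0.0793, limma adjusted p = 3.67e-06). Ndufa6 had 11.14, 11.2 and 11.52 in Control retinas, against 11.45, 11.76 and 12.12 in WT retinas, and changed by -0.5 (SE 0.0758, adjusted p = 1.68e-05). Only Control replicate 1 reached into the WT range. Uqcrc2, a core protein of complex III, had 11.33, 11.58 and 11.72 in Control retinas, against 11.74, 11.93 and 12.07 in WT retinas, again without overlap, and changed by -0.37 (SE 0.0582, adjusted p = 3.61e-05). Uqcrh, the hinge protein of complex III beside cytochrome c1, changed by -0.34 (SE 0.0647, adjusted p = 0.000338). Cox7c changed by -0.42 (SE 0.0745, adjusted p = 0.000126) and was also without overlap. The muscle and heart isoform Cox7a1 changed by -0.43 (SE 0.132, adjusted p = 0.0192), with an adjusted p of 0.0507 without WT replicate 6. Among accessory subunits of complex I, Ndufa1 changed by -0.36 (SE 0.0756, adjusted p = 0.000834) and Ndufb3 by -0.4 (SE 0.0918, adjusted p = 0.00227). Cox7a2l changed by -0.27 (SE 0.076, adjusted p = 0.0101). The arrays of 5 members did not overlap between the groups, against 3.18% of all probes.

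Catalytic and head subunits passed about as often as other probes: 3 of 14 (21.4%), against 22.2% of all probes. One of the 3 probes of Sdhb was lower (-0.25, SE 0.078, limma adjusted p = 0.0191, and 0.0507 without WT replicate 6). The dim probe of Uqcrfs1 was higher (0.26, SE 0.0964, adjusted p = 0.0494), and its call was lost in 22 of 31 fits with 1 array left out. Of the 5 core subunits of complex I, Ndufs3 alone passed (-0.15, SE 0.0555, limma adjusted p = 0.0498), and that call was lost in 24 of 31 fits with 1 array left out. No F1 head subunit of ATP synthase passed. Atp5b had log2 levels of 13.57, 13.81 and 13.98 in Control retinas, against 13.57, 13.95 and 14.06 in WT retinas (change -0.11, SE 0.0733, adjusted p = 0.293). The c subunit genes Atp5g1, Atp5g2 and Atp5g3 changed by -0.01, -0.18 and -0.09 without a call. Peripheral stalk and membrane subunits of ATP synthase held the calls of complex V: 4 of 10 such probes were lower (Atp5pb, Atp5j, Atp5l and Atp5mpl) and 1 was higher, against 10.9% lower and 11.4% higher among all probes. The call on Atp5mpl was lost in 7 of 31 fits with 1 array left out.

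**Figure D3:**
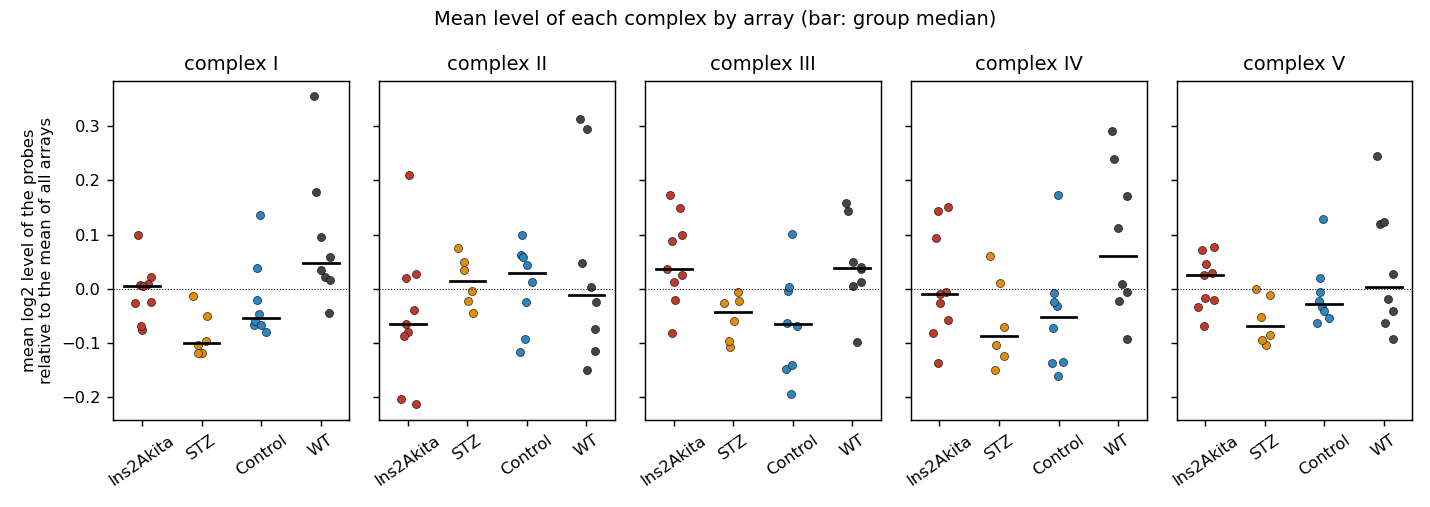
Mean log2 level of the probes of each complex on each array, relative to the mean over all 31 arrays (points), in Ins2Akita, STZ, Control and WT retinas; bars are group medians. WT replicate 6 is the highest point of complexes I, II, IV and V, and Control replicate 1 is the highest of its group in complexes I, III, IV and V.

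Averaged over all 101 members, array means relative to all arrays were -0.076, 0.02 and 0.089 (lowest, median and highest) in Ins2Akita retinas, -0.102, -0.079 and 0.006 in STZ retinas, -0.088, -0.053 and 0.128 in Control retinas, and -0.06, 0.033 and 0.304 in WT retinas. The groups overlapped, and the WT arrays had the widest spread. WT replicate 6 was highest of all and also had the fewest detected probes, whose part in these means was not tested.

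Because the 2 groups without diabetes differed, the Ins2Akita arrays were also set against Control in place of WT, an alternative chosen after seeing the data. The 2 comparisons share the Ins2Akita arrays. Against Control, 24 members passed (16 higher and 8 lower), against 23.3% of all probes, and the median change was 0.059, opposite in sign to that against WT. Atp5g3 changed by 0.32 against Control and 0.23 against WT, and Ndufc2 by 0.29 and 0.23. Atp5e changed by -0.52 against Control and -0.36 against WT, and Ndufaf3 by -0.38 and -0.31. These 4 passed the test the same way in each. Atp5pb passed in opposite directions, with 0.26 against Control and -0.32 against WT. Ndufaf1 (-0.08 against Control), Ndufb5 (-0.22), Ndufc1 (-0.06 on the probe that fell) and Cox4i1 (-0.07) did not pass against Control. Ndufa6 (0.15), Ndufb3 (0.02), Ndufaf5 (0.11) and Cox7c (0.07) had the other sign against Control, without a call. In all, 49 of the 101 members had the other sign against Control, 40 of them below 0 against WT and above 0 against Control. They include Uqcrc2 (0.29 against Control and -0.08 against WT) and Uqcrh (0.21 and -0.13), which passed against Control alone. Set against WT in place of Control, STZ retinas had 38 members past the test (35 lower and 3 higher), against 24.8% of all probes, with a median of -0.157, and 23 members had the other sign.

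Genes with several probes gave a check on single probes. Of the 101 probes, 35 belonged to 15 genes with more than 1. In Control against WT, 9 of these 15 genes had the same sign on every probe. A total of 7 genes passed on some probes and missed on the rest. Every probe passed in 2 genes, Ndufc1, lower on both probes (-0.33 and -0.24), and Sdhc. Calls in both directions were seen in 2 genes, Sdhc and Atp5j, the second of which is also among the 7. Sdhc, a membrane anchor of complex II, changed by -0.27 (SE 0.0888, limma adjusted p = 0.0253, and up to 0.0684 without WT replicate 6 or Control replicate 8) on its bright probe and by 0.44 (SE 0.118, adjusted p = 0.00698) on a dim one, detected on 29 of 31 arrays. Atp5j, the coupling factor 6 of the peripheral stalk, changed by -0.27 (SE 0.0786, adjusted p = 0.0138) on its brightest probe, by -0.17 (SE 0.0934, adjusted p = 0.203) on the next and by 0.55 (SE 0.11, adjusted p = 0.000492) on the dimmest. The 3 member probes that were higher in Control than in WT retinas were those dim probes of Sdhc and Atp5j and the probe of Uqcrfs1, with mean log2 levels between 5.36 and 5.94, while the 29 lower ones had mean levels of 7.33 to 12.94. Of 4 probes of Ndufs4, an accessory subunit of the matrix arm, 1 fell by 0.3 (adjusted p = 0.00522), and the other 3 changed by 0.04 to 0.15 without a call. Cox6a1, the common isoform beside Cox6a2, changed by -0.32 on one probe (adjusted p = 0.00195) and -0.15 on the other. Ndufb6, of the membrane arm, changed by -0.35 (adjusted p = 0.001) and -0.12. Ndufa5 changed by -0.46 on one probe (adjusted p = 0.00118) and 0.08 on the other, and Ndufaf5 by -0.38 (adjusted p = 0.000114) and 0.07.

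**Figure D4:**
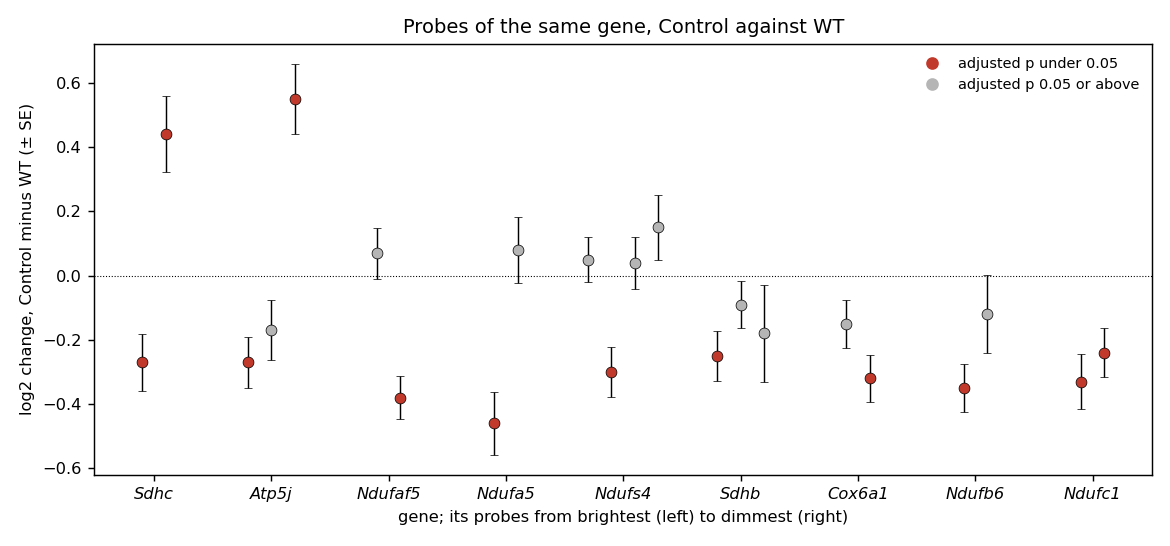
Log2 change between Control and WT (points, with the SE as bars) on each probe of 9 genes with several probes, ordered within a gene from the brightest to the dimmest probe; red points had an adjusted p under 0.05. Sdhc and Atp5j have red points on both sides of 0.

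Several subunits of complex IV exist as tissue isoforms, and some of these varied with other tissue in the sample. Cox8b, an isoform of heart, skeletal muscle and brown fat, did not pass the test in any comparison, but its log2 levels ran from 5.75 to 9.71 over the 31 arrays. They were 6.37, 7 and 9.1 in Ins2Akita retinas, 6.66, 7.4 and 8.63 in STZ retinas, 5.75, 6.57 and 8.17 in Control retinas and 6.11, 6.51 and 9.71 in WT retinas. Its level followed the markers of pigment epithelium and melanocytes, of which 11 of 13 genes had a kept probe (17 probes). With group means removed, Pearson's r was 0.919 and Spearman's rho 0.916 over 31 arrays, each with a permutation p of 1e-05, the smallest that 100000 permutations can give (0.00015 adjusted over 15 relations). Without the 2 arrays farthest from the median marker score r was 0.892. Within groups r was 0.955 in Ins2Akita, 0.678 in STZ, 0.918 in Control and 0.984 in WT retinas. Summed deposited intensities of those markers were 6130 to 35261 in Ins2Akita, 7060 to 25134 in STZ, 2218 to 24498 in Control and 2866 to 27741 in WT retinas. Of the 17 probes, 12 were detected on every Ins2Akita array, 11 on every STZ array, 8 on every Control array and 9 on every WT array.

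Cox6a2, another isoform of heart and skeletal muscle, was below the filter because 2 arrays alone detected it. Its log2 level was 6.23 in Ins2Akita replicate 8 and 7.03 in WT replicate 7, against 4.38 to 4.91 on the other 29 arrays. The same arrays had the highest scores of skeletal muscle markers, 3.2 in Ins2Akita replicate 8 and 2.39 in WT replicate 7, against -0.57 to 0.05 elsewhere (6 of 12 marker genes with a kept probe). Their summed intensities were 144 to 3977 in Ins2Akita, 111 to 199 in STZ, 145 to 233 in Control and 158 to 2209 in WT retinas. Without those 2 arrays, 12 members passed between Ins2Akita and WT. Cox7a1, which shares the tissue range of Cox6a2, gave a Pearson's r of 0.207 (permutation p = 0.29, adjusted 0.461) and a Spearman's rho of 0.369 (permutation p = 0.00976, adjusted 0.056) with the muscle score over 31 arrays, and r was 0.342 without the 2 arrays farthest from the median score. The testis isoform Cox6b2 had levels of 7.71 to 8.61 on its brighter probe, detected on all 31 arrays.

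**Figure D5:**
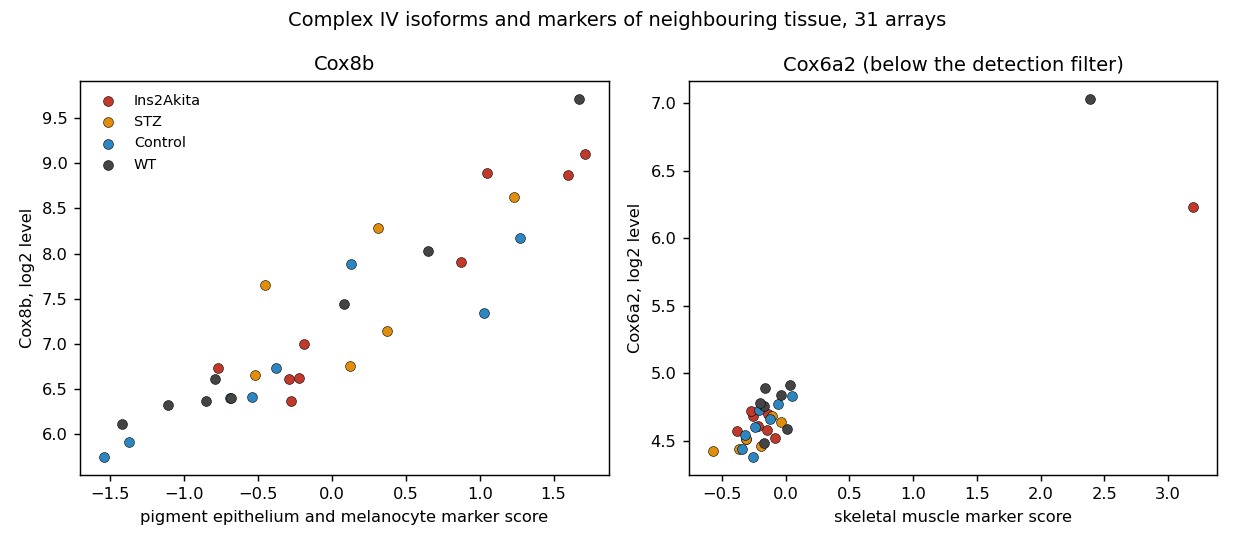
Log2 level of Cox8b against the marker score of pigment epithelium and melanocytes (left), and of Cox6a2 against the score of skeletal muscle (right), 1 point per array, coloured by Ins2Akita, STZ, Control and WT; scores are mean log2 levels relative to all arrays. Cox8b rises with its score in all 4 groups, and 2 arrays stand apart for Cox6a2.

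Other genes of mitochondrial energy use were counted over whole lists. The adenine nucleotide carrier Slc25a5 and the phosphate carrier Slc25a3 supply ATP synthase with its substrates. In Ins2Akita against WT retinas Slc25a5 was higher by 0.32 (SE 0.0645, limma adjusted p = 0.0053). Slc25a3 was higher by 0.34 on 1 probe (SE 0.0638, adjusted p = 0.00355). These were the 2 calls among 13 probes of 10 carrier and pore genes (15.4%, against 4.16% of all probes). A further probe of Slc25a3 did not pass in that comparison. Both carriers were also higher in Control than in WT retinas, Slc25a5 by 0.34 (adjusted p = 0.000445) and Slc25a3 by 0.23 and 0.3 on its probes. Tomm20, the import receptor of the outer membrane, was higher there as well (0.52, adjusted p = 0.00103). Among 15 probes of 11 regulators of mitochondrial biogenesis, the coactivator Ppargc1b rose in Ins2Akita retinas (0.29, SE 0.064, adjusted p = 0.00997). That was 1 call of 15 (6.67%). In the tricarboxylic acid cycle, 1 of 19 probes passed (5.26%, near the 4.16% of all probes), Suclg1 of succinyl-CoA ligase (0.21, SE 0.0576, adjusted p = 0.034). The same probe was also higher in Control than in WT retinas (0.17, limma adjusted p = 0.0349). None of these lists had a call between STZ and Control retinas.

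In Control against WT retinas the regulators had 4 lower probes and 1 higher of 15 (33.3% called, against 22.2% of all probes). Gabpb1, the partner of the ETS factor GABPA, was lower on both probes (-0.39 and -0.43), Tfam, the packaging protein of mitochondrial DNA, changed by -0.2 (adjusted p = 0.0432), and Gabpa was lower on one probe (-0.44, limma adjusted p = 0.002) and higher on the other (0.49, adjusted p = 0.028). Assembly genes had 9 lower and 3 higher of 46 probes (26.1% called, against 22.2% of all probes). Of all probes, 10.9% were lower and 11.4% higher, so the calls of this list lay more to the lower side. The copper chaperone Cox17 changed by -0.4 (SE 0.0851, adjusted p = 0.00108), and Surf1, an assembly factor of complex IV, by -0.24 and -0.29 on its 2 probes. Atpaf2, an assembly factor of the F1 head, changed by 1.45 (SE 0.127, adjusted p = 1.05e-09) on 1 probe, the largest change that passed in these lists. Cytochrome c1 (Cyc1) of complex III changed by -0.19 (adjusted p = 0.025) and cytochrome c (Cycs) by 0.54 (SE 0.16, adjusted p = 0.0147). These symbols lie outside the rule for members.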

How the data were processed

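RNA of whole retina was hybridised to Illumina BeadChips (31 arrays, 1 colour). According to the labels' protocols, Trizol extraction was followed by a column clean-up with DNase. The submitters' processing notes name BeadStudio, without settings. The authors deposited linear intensity values, which the values themselves show to be background-subtracted and scaled to 1 mean per array, with a detection p-value per probe. That scaling hides differences in total signal, and the number of arrays limits the precision. The deposited series matrix, not background-subtracted, served as an alternative.

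Values were processed to log2 with neqc (limma 3.58.1, R 4.3.3, offset 16, which understates changes of dim probes). Probes detected on 6 or more arrays were kept (16743). Symbols came from the platform annotation, updated by Entrez identifier. A model of 4 group means over all arrays (lmFit, eBayes, two-sided, Benjamini-Hochberg over all kept probes, calls under 0.05) was tested on simulated data. Alternatives changed scaling, background, filter, probes per gene, arrays and blocks, or added the neighbouring-tissue marker scores (lens, pigment epithelium and melanocytes, muscle) as covariates. Marker scores are means of log2 levels relative to all arrays, and isoform relations used 100000 permutations within groups. Figures used matplotlib 3.10.9.

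Members, lists and tests were chosen with earlier results of these data known. Named were members that passed a test (up to 6 per complex and comparison), the smallest p, brightest and dimmest of each complex, tissue isoforms, catalytic subunits and genes whose probes disagreed. Deviations from group means of same-numbered arrays correlated at -0.256 to 0.331 (Ins2Akita and WT), -0.154 to 0.42 (STZ and Control) and -0.207 to 0.483 (Control and WT), so the replicate numbers, positions on the BeadChip, do not pair samples.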

Additional observations from a re-analysis of the deposited data

Results flagged for a closer look

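Single arrays stood apart from the rest of their group in 5 of 96 groups of values tested by Dixon's criterion, where chance gives about 1 in 20. STZ replicate 1 had the highest Ndufb5 level (10.85, against 10.44 to 10.58 on the other STZ arrays) and the highest Ndufaf5 level on one probe (9.91, against 9.62 to 9.7). Control replicate 1 had the highest mean score of complex IV (0.173, against -0.16 to -0.01), of complex V (0.129, against -0.06 to 0.02) and the highest Ndufa6 level (11.52, against 11.14 to 11.29). A probe left out by the detection filter carried signal on a pair of arrays: Cox6a2 was at 6.23 in Ins2Akita replicate 8 and at 7.03 in WT replicate 7, against 4.38 to 4.91 elsewhere.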

How the results depend on the processing

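BeadChip and group nearly coincide, so a block by BeadChip cannot correct for differences between BeadChips. With the BeadChip as a random block, the count of members that passed between Ins2Akita and WT was 8 in place of 13. With the other group without diabetes in its place (added after seeing the data), it was 24, with a median change of 0.059 in place of -0.072. Under the same exchange STZ had 38 members in place of 0, with a median of -0.157. Of all members, 49 took the other sign then in Ins2Akita retinas and 23 in STZ retinas. Among the members called between Ins2Akita and WT, those were Ndufa6 (0.15), Ndufb3 (0.02), Ndufaf5 (0.11), Cox7c (0.07) and Atp5pb (0.26), and among the members with the smallest p of their complex between STZ and Control, Uqcrc2 (-0.27). With median scaling the median between Control and WT was -0.207. In the series matrix values Uqcrq, a dim probe, changed by -0.03 between Ins2Akita and WT. The cause of these shifts was not tested. The other settings left the count between Ins2Akita and WT within 9 and 17, that between Control and WT within 24 and 39, and the counts for STZ and for the difference of the models at 0. The count of 17 came from the series matrix values, where the median change was -0.077 over the members and -0.086 over all probes. Leaving out 1 array gave counts of 11 to 16 and medians of -0.094 to -0.05 for Ins2Akita against WT, 0 members and medians of -0.068 to -0.016 for STZ against Control, 22 to 37 and -0.139 to -0.084 for Control against WT, and 0 for the difference. Between Control and WT the calls on Uqcrfs1 and Uqcrb were lost in 22 and 10 of 31 such fits. With the replicate number as a block, 15, 0, 32 and 0 members passed in the 4 tests, although the numbers do not pair samples; 1, 1 and 2 arrays correlated best with their own number in the 3 comparisons. Dim probes, such as those of Uqcrfs1, Uqcrq and Cox6b2, lie close to background, and the offset compresses their changes.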
